A study of Homo sapiens with 3 samples.

Results

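The genes that write and erase methyl marks on histones and DNA were examined in 22Rv1 cells, a human prostate carcinoma line of epithelial origin. The 49 genes were chosen by name: histone lysine and arginine methyltransferases, histone demethylases, DNA methyltransferases, TET dioxygenases and the DNA methylation cofactor UHRF1, with Polycomb subunits left out. All 49 were found among the 27024 counted genes of the libraries. RNA-seq was available for 3 libraries of 1 group, WT cells of the 22Rv1 line grown in RPMI1640 with serum and given no treatment named in the labels. In the study these cells served as the control for a CRISPR/Cas9 deletion of a risk enhancer and for a risk allele, whose libraries were not analysed here. The study describes its RNA-seq libraries as biological replicates and its controls as clones raised from single cells, while the labels give replicate numbers alone. The spread between the libraries may therefore hold differences between clones. With 1 group there was no comparison between conditions, and the questions that could be asked were how high each enzyme gene was, which paralogue led each family, and how far the 3 libraries differed.

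Methyl groups on histone lysines and arginines are placed by SET domain enzymes, by DOT1L and by arginine methyltransferases, with S-adenosylmethionine as donor. They are removed by flavin-dependent (KDM1) and iron- and 2-oxoglutarate-dependent (JmjC) demethylases. DNA methylation is copied at replication by DNMT1 with UHRF1, set anew by DNMT3A and DNMT3B, and removed stepwise after oxidation by TET proteins. Among these genes, KMT2C, KMT2D and KDM6A are recurrently mutated in prostate cancer.

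Many of the 49 genes are paralogues, so the first question was whether reads of 1 gene could be counted for another. The longest stretch of identical bases shared by the canonical transcripts was measured for all 36 pairs within families, and it was between 11 and 42 bases long, with a median of 17. Reads were 150 bases long and paired, so no pair shared a run as long as a read. The longest run joined KMT2A and KMT2B, which place H3K4 methylation at promoters, and it lies in the coding sequence just before the stop codon, downstream of the SET domain. It is shown here with up to 30 coding bases on either side, within exon 36 of KMT2A and exon 37 of KMT2B (GRCh37, read 5′ to 3′ on the coding strand), and the capitals mark the identical run.
KMT2A, chr11:118392792-118392884 (+ strand): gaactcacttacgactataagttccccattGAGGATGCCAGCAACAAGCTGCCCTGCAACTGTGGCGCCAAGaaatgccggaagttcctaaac
KMT2B, chr19:36229363-36229455 (+ strand): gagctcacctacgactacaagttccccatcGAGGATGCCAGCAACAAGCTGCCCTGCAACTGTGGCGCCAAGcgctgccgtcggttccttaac
KDM4A and KDM4B, JmjC demethylases of H3K9 and H3K36, shared 26 bases. Their windows are spliced, from exons 5 and 6 of KDM4A and exons 6 and 7 of KDM4B, so the coordinates span an intron.
KDM4A, chr1:44128688-44131381 (+ strand): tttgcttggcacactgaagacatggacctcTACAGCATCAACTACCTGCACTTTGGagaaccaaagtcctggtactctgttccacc
KDM4B, chr19:5047610-5071035 (+ strand): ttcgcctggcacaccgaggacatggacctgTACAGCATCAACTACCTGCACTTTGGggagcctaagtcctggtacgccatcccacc
The catalytic TET2 and TET3 shared 20 bases, in exon 7 of TET2 and exon 8 of TET3. Outside the capitals the flanks of each pair differ at scattered bases.
TET2, chr4:106180780-106180859 (+ strand): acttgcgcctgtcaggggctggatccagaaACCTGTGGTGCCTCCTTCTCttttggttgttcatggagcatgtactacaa
TET3, chr2:74317028-74317107 (+ strand): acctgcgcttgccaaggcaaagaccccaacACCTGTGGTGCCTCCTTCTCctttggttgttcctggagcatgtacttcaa

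All 49 genes reached at least 1 CPM, a count scaled to a fixed library total, in each of the 3 libraries, against 47.7% of all counted genes and 63.8% of the 19140 protein-coding ones. The lowest value of any of them in any library was 5.96 CPM. The level of a gene is its normalized count as the authors deposited it, a read count corrected for library size with a single factor. The median of the 49 genes was 3037 normalized counts, against 1113 for the 12877 expressed genes, and 37 of the 49 lay above that median. Because these transcripts are long (median 6094 bases for the 49, 3334 for expressed genes), levels of the 49 were ranked per kilobase of the canonical transcript. On that scale the median was 417 for the 49 genes and 315 for the expressed genes, and 34 of the 49 were above the latter. The highest and the lowest of the 49, PRMT1 and TET1, were 457-fold apart per kilobase of canonical transcript, and 126-fold per kilobase of the union of all annotated exons, over which PRMT1 had 2499.7 and TET1 19.8. Together the 49 genes held 0.565%, 0.582% and 0.539% of the reads in replicates 1, 2 and 3. The plot of levels by role shows all 49 genes.

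**Figure D1:**
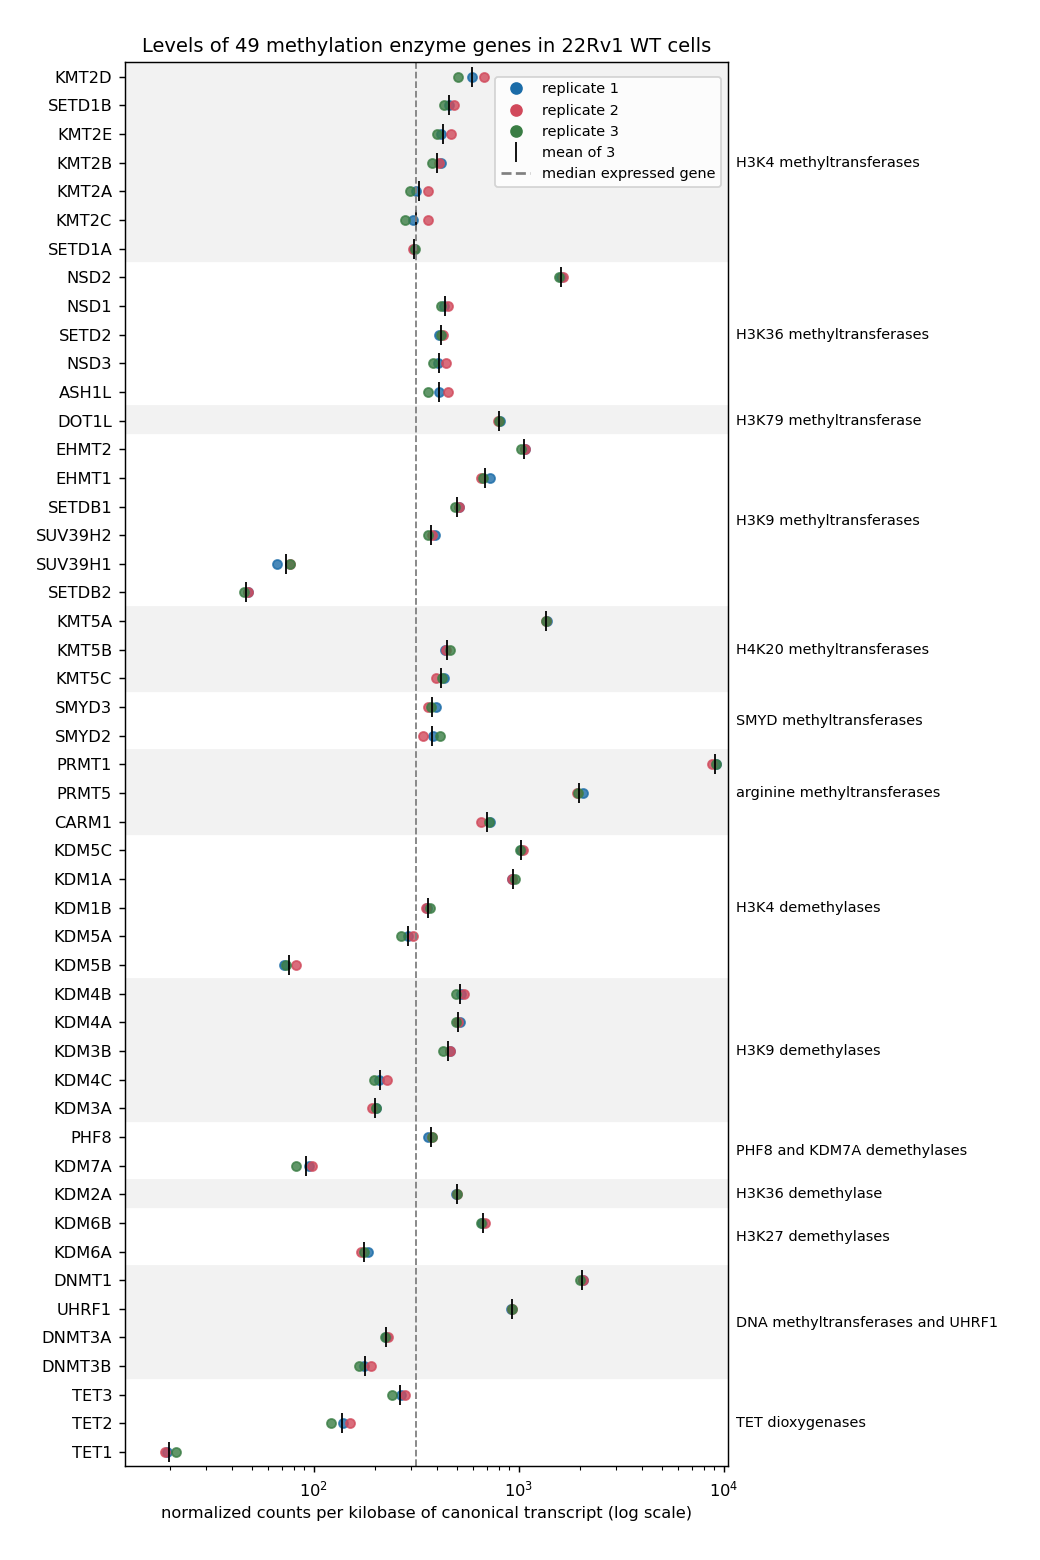
Normalized counts per kilobase of canonical transcript (log scale, horizontal) for the 49 genes, grouped by role, with 1 point for each of the 3 libraries, a tick for their mean and a dashed line at the median of the expressed genes (315). PRMT1 stands at the right with a mean of 9028 and TET1 at the left with 19.8, a distance larger than that between the 3 points of any gene. In order of level, 34 of the 48 neighbouring pairs overlap in their 3 points.

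The libraries held 35675670 to 38629080 reads in counted genes. A single gene of the 49 was covered by 213 to 16608 reads in a library, so counting error is largest for TET1, SUV39H1 and SETDB2. The prostate markers HOXB13, FOLH1, KLK2, KLK3 and TMPRSS2 were expressed, as were the luminal markers KRT8, KRT18 and EPCAM (3 of 3). The leukocyte markers PTPRC and CD74 (0 of 2) and the endothelial marker VWF (0 of 1) were not expressed, and 1 of 3 fibroblast markers, COL1A1, was, at 261 ± 17.2 normalized counts (SD, n = 3). The summed level was 7.90 to 11.8 normalized counts for the leukocyte markers and 245.3 to 298.6 for the fibroblast markers.

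The highest level per kilobase was that of an arginine methyltransferase. PRMT1, the main enzyme of asymmetric arginine dimethylation (chr19:50179043-50192286 in GRCh37), had 12150.4, 11609.7 and 12205.8 normalized counts in replicates 1, 2 and 3, or 9028 ± 248 per kilobase (SD, n = 3). Its 3 values per kilobase exceeded all 3 of every other gene of the 49, and 98.6% of expressed genes had a lower mean per kilobase. PRMT5, which makes symmetric dimethylarginine, had 4742.7, 4425.0 and 4505.5 normalized counts, or 1978 ± 71.7 per kilobase. CARM1, a coactivator of nuclear receptors that methylates H3R17, was lower at 698 ± 40.4 per kilobase. The canonical PRMT1 transcript is short (1328 bases) and has a pseudogene, PRMT1P1, that aligned over 65.9% of it at 91.8% identity, as did an intron-retaining transcript of NSD1 over 72.3%, and 38.8% of the PRMT5 transcript lies under the exons of PRMT5-AS1 on the other strand. The CARM1 transcript overlaps YIPF2 over 27%, also on the other strand. Whether counting used strand is not given in the sources used here.

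Of the H3K4 methyltransferases, KMT2D and KMT2C, which act at enhancers, differed in level. KMT2D (chr12:49412758-49454577, with a transcript of 20635 bases in 55 exons) had 12209.6, 14054.5 and 10418.7 normalized counts, or 593 ± 88.1 per kilobase. KMT2C had 5133.0, 6087.1 and 4705.5 normalized counts, or 315 ± 42.0 per kilobase. All 3 KMT2D values per kilobase lay above all 3 KMT2C values. KMT2B, which acts at promoters, stood at 401 ± 19.8 per kilobase, and its partner paralogue KMT2A at 325 ± 34.5. SETD1B, one of the paired enzymes for bulk H3K4 trimethylation, had 458 ± 24.5 per kilobase and SETD1A 309 ± 4.16. KMT2E, a SET domain protein without shown H3K4 activity, stood at 428 ± 33.4. KMT2A and KMT2C share parts with other annotated genes. A readthrough gene lies over 22.0% of the KMT2A transcript on the same strand, and BAGE2 matched 12.7% of KMT2C at 97.7% identity and has a row of its own.

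NSD2 led the H3K36 methyltransferases. It places H3K36 dimethylation and had 12178.0, 12511.8 and 11872.0 normalized counts, or 1612 ± 42.3 per kilobase. NSD1 at 436 ± 17.4, SETD2 at 417 ± 9.61, NSD3 at 411 ± 29.99 and ASH1L at 407 ± 45.1 per kilobase lay close together. SETD2 is the enzyme of H3K36 trimethylation behind elongating RNA polymerase II. Each of these levels overlapped that of its neighbour in the order over the 3 libraries. DOT1L, the H3K79 methyltransferase, had 6214.6, 6093.8 and 6158.8 normalized counts, or 804 ± 7.90 per kilobase.

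In fold terms, the H3K9 methyltransferases spanned the widest range per kilobase among the writers of lysine marks, from 47.1 to 1057. EHMT2, which with EHMT1 forms the G9a/GLP complex for H3K9 dimethylation, had 4253.7, 4291.3 and 4073.3 normalized counts, or 1057 ± 29.3 per kilobase. EHMT1 stood at 684 ± 35.6 and SETDB1, which silences repeats with KAP1, at 503 ± 13.0. The SUV39H enzymes place H3K9 trimethylation in heterochromatin, and here SUV39H2 (375 ± 14.6 per kilobase) was above SUV39H1 (73.1 ± 6.06). SUV39H1 had 180.9, 209.0 and 210.2 normalized counts, lowest in replicate 1. SETDB2 was lower still, at 295.5, 295.3 and 285.0 normalized counts and 47.1 ± 0.968 per kilobase.

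KMT5A, the only enzyme of H4K20 monomethylation, had 3801.0, 3765.0 and 3762.3 normalized counts, or 1360.3 ± 7.78 per kilobase. KMT5B (448 ± 13.4) and KMT5C (417 ± 19.9), which add further methyl groups to H4K20, stood lower, and each KMT5B value per kilobase was above each KMT5C value. SMYD3 and SMYD2, methyltransferases with substrates in the cytoplasm as well as on histones, had equal levels within their spread, at 378 ± 18.4 and 378 ± 35.1 per kilobase. A processed copy named KMT5AP2 aligned over 37.9% of the KMT5A transcript at 97.1% identity.

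Among the demethylases, KDM5C and KDM1A were highest per kilobase of canonical transcript. Per kilobase of union exons KDM6B (608) and KDM5C (485) led, and KDM1A stood at 158. KDM5C, an X-linked eraser of H3K4 trimethylation, had 5952.3, 6070.1 and 5906.9 normalized counts, or 1029 ± 14.5 per kilobase. KDM1A (LSD1), which removes mono- and dimethyl groups from H3K4, had 2864.8, 2859.5 and 2967.2 normalized counts, or 939 ± 19.7 per kilobase. Their 3 libraries did not overlap. KDM1B stood at 360 ± 9.23, KDM5A at 287 ± 20.4 and KDM5B, often high in hormone-dependent tumours, at 75.7 ± 5.80 per kilobase. KDM5B had 666.0, 765.0 and 678.6 normalized counts.

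The H3K9 demethylases KDM4B (520 ± 25.8 per kilobase), KDM4A (505 ± 10.3) and KDM3B (452 ± 20.7) stood above KDM4C (211 ± 15.5) and KDM3A (199 ± 5.04). KDM3A and KDM3B remove mono- and dimethyl groups from H3K9. A transcript model without a symbol covers 46.5% of the KDM4A transcript on the same strand and has no row of its own. KDM2A, an H3K36 demethylase with a CpG-binding CXXC domain, had 3661.2, 3684.6 and 3684.4 normalized counts, or 498 ± 1.82 per kilobase. Of the H3K27 demethylases, KDM6B had 668 ± 13.7 and the X-linked KDM6A 176 ± 7.09 per kilobase. PHF8, which erases H3K9 dimethylation and H4K20 monomethylation, had 372 ± 10.1 and KDM7A 91.9 ± 8.38 per kilobase.

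DNMT1, the maintenance DNA methyltransferase (chr19:10244018-10341962), had 10865.7, 10818.4 and 10553.3 normalized counts, or 2038 ± 31.9 per kilobase, a level above that of 90.8% of expressed genes. UHRF1, which brings DNMT1 to hemimethylated DNA, had 3595.6, 3610.1 and 3616.7 normalized counts, or 926 ± 2.77 per kilobase, and a coefficient of variation (CV) of 0.299%, the smallest of the 49. A pseudogene aligned over 36.5% of the UHRF1 transcript at 99.4% identity, so some of its reads may have 2 possible origins. The de novo enzymes were lower, with DNMT3A at 226 ± 3.63 and DNMT3B at 178 ± 12.5 per kilobase. DNMT3A had 2133.2, 2166.4 and 2098.1 normalized counts and DNMT3B 766.4, 826.8 and 718.8. TET3 had 264 ± 19.6, TET2 137 ± 14.2 and TET1 19.8 ± 1.35 per kilobase, and no 2 of the 3 overlapped. TET1 (chr10:70320094-70454244) had 184.9, 180.3 and 204.7 normalized counts, and 4.41% of expressed genes had a lower mean per kilobase.

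Ordered by mean level per kilobase of canonical transcript, 14 of the 48 neighbouring pairs did not overlap in the 3 libraries and 34 did. Gaps followed PRMT1, PRMT5, NSD2, KMT5A, KDM5C, UHRF1, DOT1L and KDM2A in the upper part of the order, and TET3, KDM3A, KDM6A, TET2, SUV39H1 and SETDB2 in the lower part. Between these, from SETD1B to TET3, no neighbours were separated, so the ranks of those genes are not settled by 3 libraries. The gaps hold for this length only. Per kilobase of union exons KMT5A (896) stood above NSD2 (599), and DNMT1 (699) and UHRF1 (701) were close.

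**Figure D2:**
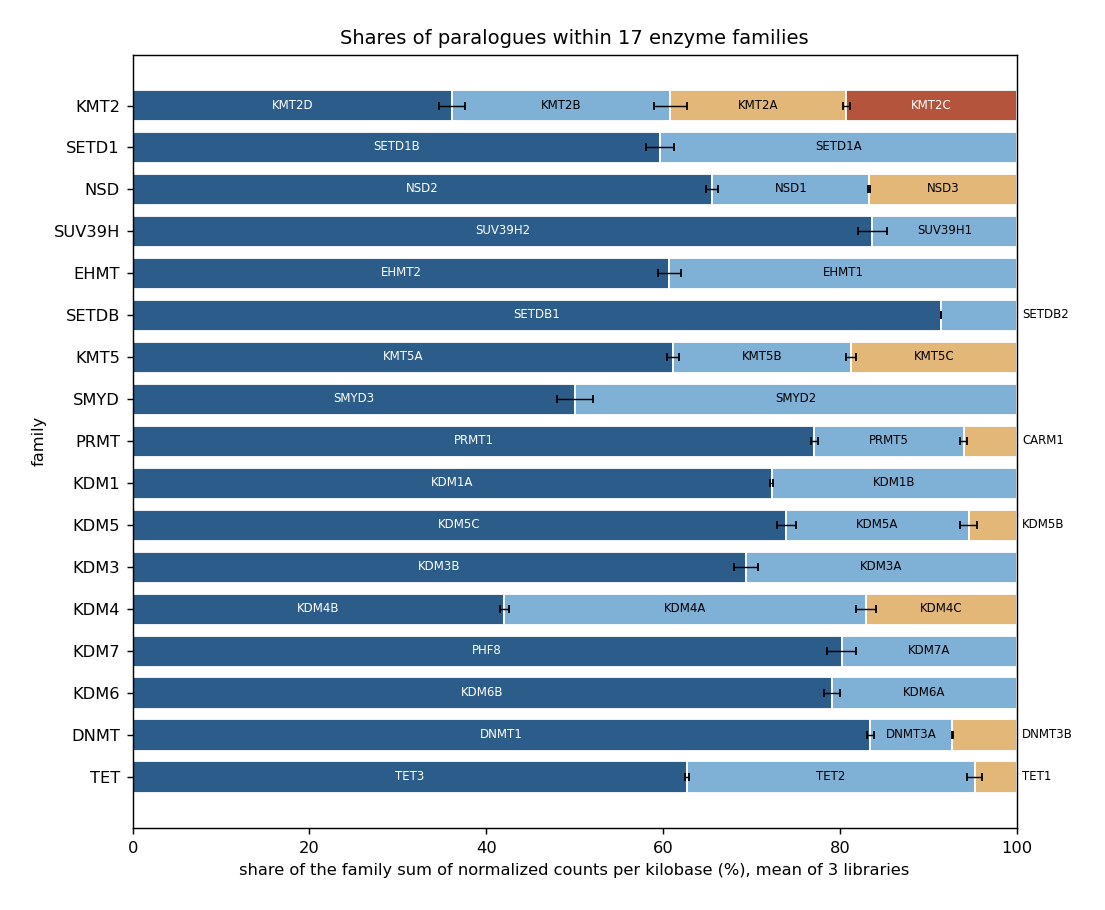
Share of each gene in its family's summed normalized counts per kilobase (%, horizontal), for 17 families of paralogues, as the mean of 3 libraries, with an error bar of 1 SD at the end of each segment but the last; genes with small shares are named at the right. DNMT1 took 83.5% of the DNMT sum and SETDB1 91.4% of the SETDB sum, while SMYD3 and SMYD2 were even.

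In most families 1 paralogue held the larger part of the summed level per kilobase. DNMT1 made up 83.5% ± 0.41 of the DNMT sum (SD, n = 3), DNMT3A 9.27% and DNMT3B 7.28%. TET3 made up 62.7% ± 0.26 of the TET sum, TET2 32.5% and TET1 4.74%. SETDB1 held 91.4%, SUV39H2 83.7%, PHF8 80.2%, KDM6B 79.1%, PRMT1 77.1%, KDM5C 73.9% and KDM1A 72.3% of their families. The KMT2 family was more evenly divided, with KMT2D at 36.2% ± 1.47, KMT2B at 24.7%, KMT2A at 19.9% and KMT2C at 19.2%. KDM4B (42.1%) and KDM4A (40.9%) were close. SMYD3 held 50.1% ± 2.02, and SMYD2 was ahead in replicate 3. The leader of the KDM1 family depended on the length used, since with the union of all annotated exons KDM1B led (64.8%).

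The summed level of the writers of a mark was set beside that of its erasers, as RNA and not as activity. The sums hold only genes of the main set and not every enzyme of a mark. Other enzymes of the same families were measured but left out, among them SETD7 (766 ± 38.1 per kilobase) and KDM2B (336 ± 18.6). Whether counting them would move a ratio, or its direction, was not tested. For H3K36, the 5 writers summed to 3283 ± 139 per kilobase and KDM2A alone to 498 ± 1.82, a ratio of 6.60 ± 0.276 (SD, n = 3). The DNA methyltransferases summed to 2442 ± 45.3 and the TET genes to 420 ± 32.4, a ratio of 5.83 ± 0.352. For H3K9, the SUV39H, EHMT and SETDB genes were set against the KDM3 and KDM4 genes. The writers summed to 2740 ± 70.4 and the erasers to 1887 ± 64.0, a ratio of 1.45 ± 0.030. With PHF8 and KDM7A counted among the erasers, a choice made after seeing the data, that ratio was 1.17. For H3K4, KMT2A to KMT2D, SETD1A and SETD1B were set against the KDM1 and KDM5 genes, and KMT2E was left out. The writers summed to 2401 ± 198 and the erasers to 2691 ± 20.5, a ratio of 0.892 ± 0.069. For the genes counted, the H3K4 ratio was below 1 in each of the 3 libraries, and it was 1.47 with union exon lengths, under which KDM1A counted for less. Because the KDM4 enzymes act on both H3K9 and H3K36, counting them with H3K36 gave 4.21 for H3K9 and 1.89 for H3K36.

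**Figure D3:**
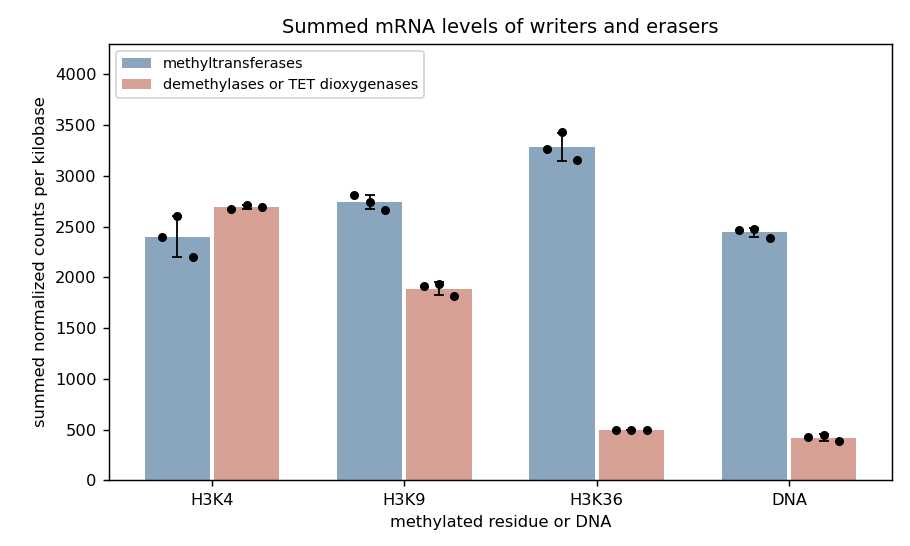
Summed normalized counts per kilobase of the writers and the erasers counted for 4 marks, with bars for the mean of the 3 libraries, error bars of 1 SD and 1 point per library. Writers exceeded erasers for H3K36, DNA and H3K9 in each library, while for H3K4 the writers lay slightly below the erasers.

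The 3 libraries gave similar levels for most of the 49 genes. The median CV was 4.02%, against 4.25% for the 10829 expressed genes with at least the mean level of the lowest of the 49, and for 28 of the 49 the highest of the 3 values was within 10% of the lowest. The CV ranged from 0.299% for UHRF1 to 14.9% for KMT2D. The spread of a gene was tested with the chi-square statistic of its 3 read counts, divided by 3.49, the mean per degree of freedom in genes with few reads, and adjusted by Benjamini-Hochberg over all 14646 genes tested. The test called 7 of the 49 genes (14.3%), against a background of 3.47% of all genes tested, at an adjusted p under 0.05. The 7 were among the 42 of the 49 genes with a mean of 1000 to 16000 reads, and 4.32% of all genes in that range were called. The mean chi-square per degree of freedom in that range was 6.67, and with it as divisor, an alternative added after seeing the data, 4 of the 49 were called, against 1.01% of genes.

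The 7 genes were KMT2D, KMT2C, KMT2A, ASH1L, NSD3, KMT2E and TET3, and all 7 were highest in replicate 2 and lowest in replicate 3. KMT2D was covered by 15454, 16608 and 13234 reads, with an adjusted p of 1.15e-39 in the scaled chi-square test. KMT2C (adjusted p = 7.94e-13), ASH1L (5.30e-08) and KMT2A (5.42e-08) followed. NSD3, an H3K36 methyltransferase, had 4351.7, 4772.0 and 4137.1 normalized counts (adjusted p = 0.0085), and ASH1L 4946.6, 5422.8 and 4339.4. KMT2E had 3255.1, 3621.1 and 3117.6 (adjusted p = 0.023) and TET3 3236.1, 3381.6 and 2919.2 (adjusted p = 0.041). With the divisor of 6.67, KMT2D, KMT2C, ASH1L and KMT2A were called, while NSD3 (adjusted p = 0.52), KMT2E (0.78) and TET3 (0.96) were not. When edgeR's trended dispersion was added to the sampling variance, only KMT2D (adjusted p = 6.91e-05) and KMT2C (adjusted p = 0.0032) were called, against 0.389% of genes. Without replicate 2, 2 genes were called, KMT2D and ASH1L. Without replicate 3 the 3 called were KMT2D, KMT2A and KMT2C, and without replicate 1 there were 9, with KDM5A and TET2 added.

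The genes called had long transcripts. Of the 49 genes, 8 had a canonical transcript of at least 10 kilobases (KMT2D, KMT2C, KMT2A, NSD1, ASH1L, TET3, NSD3 and KDM5A), and 6 of the 8 were called, against 18.4% of the 599 genes of that length tested over the whole table. The 599 include any with a mean of 10 reads or more, so that share was not matched for depth. All 8 were higher in replicate 2 than in replicate 3, by 1.08-fold to 1.35-fold, compared with 24 of the other 41. Their log2 deviation from the mean of the 3 libraries had a median of 0.13 in replicate 2 and -0.13 in replicate 3, and the 542 expressed genes of that length had 0.08 and -0.06. Across the 49 genes, Spearman's rho of the deviation with transcript length was 0.67 in replicate 2, -0.59 in replicate 3 and -0.31 in replicate 1. Over the expressed genes it was 0.31, -0.23 and -0.09. These are descriptions across genes of the same libraries, which are not independent replicates. The trend with length was then removed from each library, a step added after seeing the data. KMT2D, KMT2C and ASH1L were still called, against 1.85% of all genes. The CV fell in 33 of the 49 genes, with all 8 long genes among them, for KMT2D to 8.32%. In the others it did not fall, and for DOT1L it rose from 0.982% to 3.39%. RNA integrity and fragment length were not measured here, and their part in the trend was not tested.

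**Figure D4:**
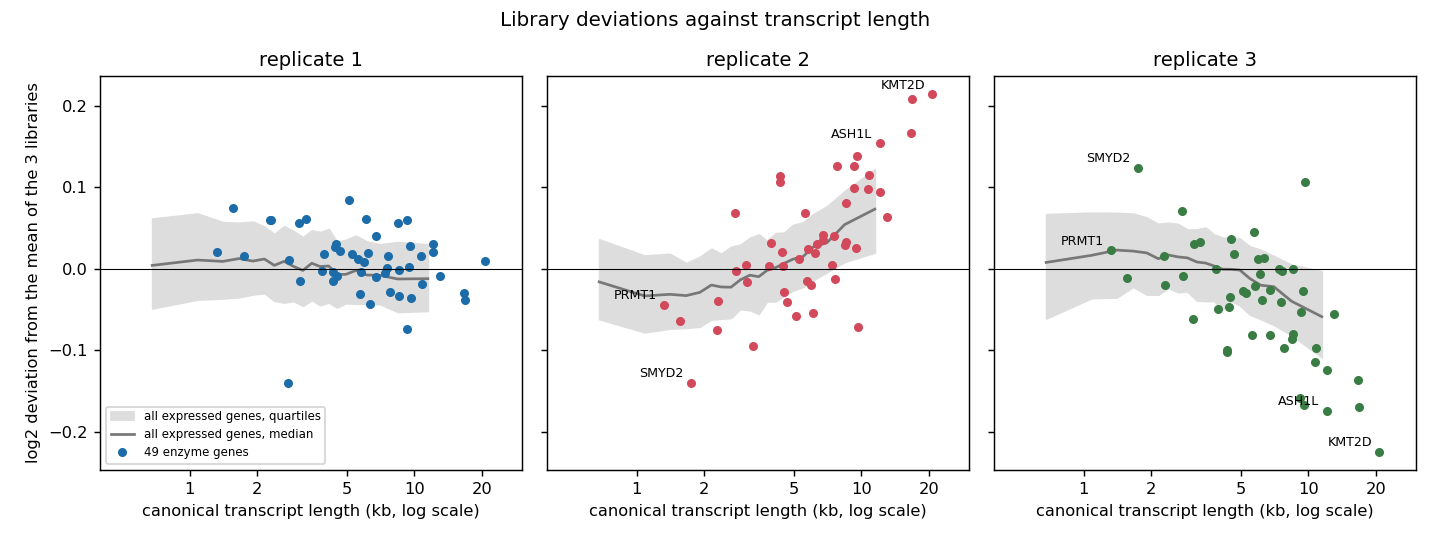
Log2 deviation of each library from the mean of the 3 (vertical) against canonical transcript length in kilobases (log scale), with 1 panel per replicate, points for the 49 genes, a grey line for the median of the expressed genes and a band for their quartiles. In replicate 2 the long genes lie above 0 (median 0.13) and in replicate 3 below it (median -0.13), and the line of all expressed genes tilts the same way.

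**Figure D5:**
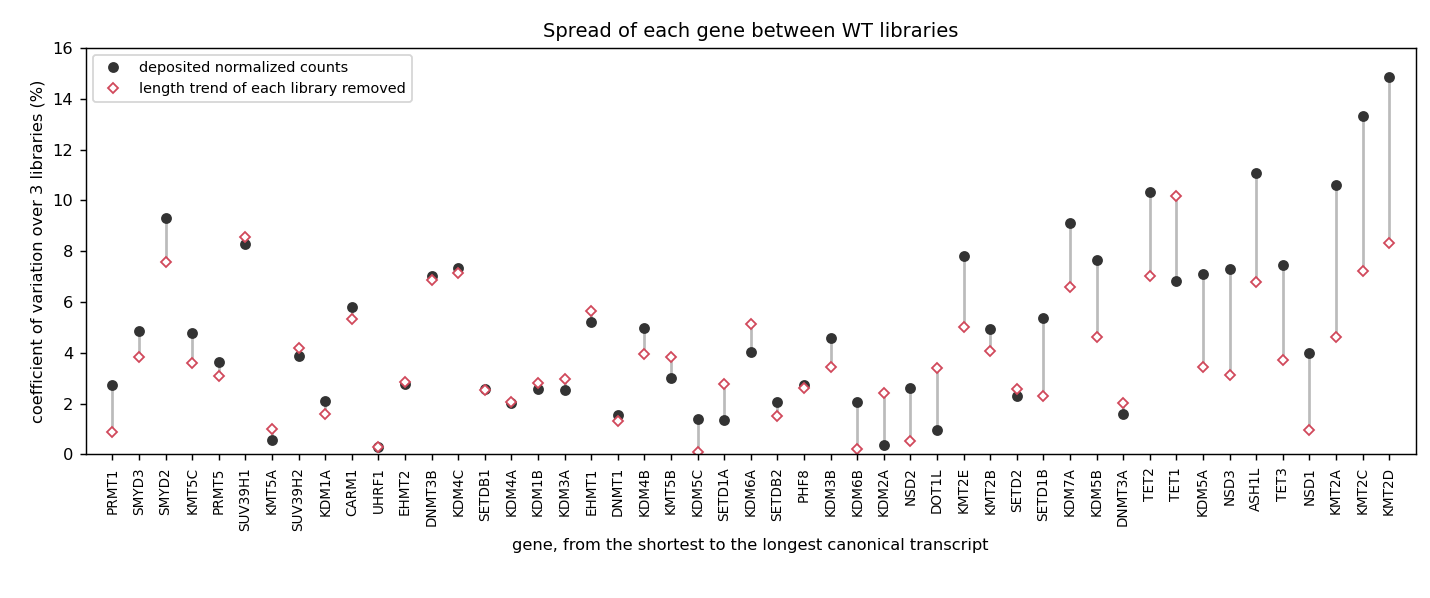
Coefficient of variation over the 3 libraries (%, vertical) of each of the 49 genes, ordered from the shortest to the longest canonical transcript, before (filled points) and after (open diamonds) the length trend of each library was removed. KMT2D, at the right, falls from 14.9% to 8.32%, while UHRF1 stays lowest among the filled points at 0.299%.

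Genes that work with these enzymes were also measured in 6 lists. Within a list, genes were ranked by normalized counts without scaling for length, so the order per kilobase can differ. Of these 96 genes, 86 passed the same minimum of 1 CPM, against 47.7% of all counted genes. The scaled chi-square test called 2 of the 96, against 3.47% of all genes tested. The 96 include genes averaging under 10 reads, such as GNMT and DNMT3L, which the test left out. Whether the lists differed from these shares was not tested. In methyl donor and cofactor metabolism 14 of 17 were expressed, with IDH1, which makes 2-oxoglutarate, highest at 14998 ± 163 normalized counts, and GNMT lowest, at 0.8 in replicate 1 and 0 in the other two. MAT2A, which makes S-adenosylmethionine, had 7169 ± 297 normalized counts and MAT1A, the liver form, 122 ± 9.62. All 12 genes of the COMPASS list, partners of KMT2 or SETD1 enzymes, were expressed, from DPY30 (1400.3 ± 74.0 normalized counts) to WDR82 (7377 ± 80.1). Per kilobase DPY30 stood above WDR82 (2035 ± 108 against 1721 ± 18.7). HCFC1, another gene of this list, was called, with 6962.0, 7359.8 and 6341.4 normalized counts (adjusted p = 6.14e-05), the same order of libraries as in KMT2D.

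Of the partners of other enzymes 13 of 14 were expressed, with HMG20B, a subunit of the KDM1A corepressor complex, highest at 9890.1 ± 240.3 normalized counts. DNMT3L, the germ cell cofactor of the DNMT3 enzymes, had 0 reads in each library, and a count of 0 allows up to 3 reads by counting error alone. All 18 readers were expressed, from L3MBTL1 (164 ± 23.5) to CBX5, the HP1 alpha protein that binds H3K9 methylation. CBX5 had 25044.2, 25309.6 and 23591.2 normalized counts and was called (adjusted p = 8.54e-05). Per kilobase CBX3 (6771 ± 47.0) stood above CBX5 (2135 ± 80.1). Of 27 other enzymes of the same families 21 were expressed, SETD7 being highest at 5214 ± 259.5 normalized counts, and PRMT8, a brain enzyme, and KDM4E had 0 reads. Per kilobase PRMT6 (1025 ± 25.3) stood above SETD7 (766 ± 38.1). All 8 genes of base excision after TET oxidation were expressed, from GADD45B (345.0 ± 46.5) to APEX1 (6750 ± 150). Per kilobase NEIL1 (113 ± 11.3) stood below GADD45B (252 ± 33.9).

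The promoters were examined for the CpG sites that DNMT enzymes act on. RefSeq promoters (GRCh38.p14, 250 bases before to 50 after the start) were matched by symbol for 46 of the 49 genes. The first window listed for a gene was kept, and it was not matched to the start of the canonical transcript. The 46 had a median of 29.5 CpG sites in 300 bases, against 14 over 27305 promoters, and 40 of the 46 (87.0%) had 15 or more, against 48.8%. The motif GGGCGG was found on either strand in 71.7% of the 46 and 44.6% of all promoters, CCAAT in 30.4% and 35.7%, and TATAAA in 0 of the 46 and 11.95% of all. All 49 genes were expressed, while the 27305 promoters were not restricted to expressed genes. These comparisons were therefore not matched for expression. The windows of PHF8 with 1, DNMT3B with 3, and NSD1 and SUV39H1 with 7 CpG sites held the fewest. Other starts of these genes were not examined, so the counts hold for these windows and not for every promoter of the gene. The 250 bases before the start are shown for the highest gene of the 49 per kilobase, the gene with the largest spread and the lowest gene per kilobase, on the strand of the gene, with each CpG site in capitals.
PRMT1, chr19:49677021-49677270 (+ strand): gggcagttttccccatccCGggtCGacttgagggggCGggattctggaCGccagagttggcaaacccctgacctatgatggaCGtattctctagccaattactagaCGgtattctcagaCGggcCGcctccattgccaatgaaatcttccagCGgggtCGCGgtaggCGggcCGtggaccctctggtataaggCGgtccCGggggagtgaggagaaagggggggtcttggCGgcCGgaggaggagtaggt
KMT2D, chr12:49060795-49061044 (- strand): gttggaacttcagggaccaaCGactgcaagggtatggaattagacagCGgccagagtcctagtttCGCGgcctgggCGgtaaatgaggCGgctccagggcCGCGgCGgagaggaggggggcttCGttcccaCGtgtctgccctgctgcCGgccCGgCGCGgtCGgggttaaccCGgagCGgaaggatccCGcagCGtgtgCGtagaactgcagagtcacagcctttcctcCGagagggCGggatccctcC
TET1, chr10:68560087-68560336 (+ strand): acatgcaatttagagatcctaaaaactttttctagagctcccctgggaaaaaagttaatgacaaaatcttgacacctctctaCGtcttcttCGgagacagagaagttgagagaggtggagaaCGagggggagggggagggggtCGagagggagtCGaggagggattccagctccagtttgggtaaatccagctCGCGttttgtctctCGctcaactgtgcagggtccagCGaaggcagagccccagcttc
The windows of PRMT1 and KMT2D hold 17 and 23 whole CpG sites and that of TET1 holds 9. DNA methylation was not measured in these libraries, so the windows describe the genome and not its state in 22Rv1 cells.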

How the data were processed

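RNA-seq libraries of 22Rv1 WT cells (n = 3) were analysed. Per the labels and the study's methods, the authors mapped paired reads of 150 bases to GRCh37 (hg19) with HISAT2 and a GENCODE annotation, counted them with HTSeq and normalized with DESeq2. The GENCODE release and the strand setting are not given in the sources used here. Each deposited signal value is a gene's read count over the size factor of its library, kept to 1 decimal.

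Read counts were recovered from the step between values, and 100% of values came out whole within 0.05. Of 29000 rows, 1976 that repeated a neighbour's reads were merged, and 86.1% of rows had a symbol in the GENCODE annotation lifted to GRCh37. Depth was 38252744, 35675670 and 38629080 reads. Low counts limit precision, and the tests cover the spread between these libraries. The members, the lists and the tests were chosen with earlier results of these data known. All 49 members are named, and of each list the highest and the lowest by normalized count and any gene called.

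CPM used TMM library sizes (edgeR 4.0.16, R 4.3.3). Spread was tested by a chi-square test on genes averaging 10 reads or more (scipy 1.17.1), scaled by genes of 10 to 50 reads. It was checked on simulated data with 1 ratio of variance to mean at all depths. That check does not cover the larger spread of genes with 1000 to 16000 reads (6.67 per degree of freedom). Alternatives were a plain chi-square, edgeR's trended dispersion, library totals, DESeq2 1.42.0 size factors, other minimum counts, unmerged rows, union exon lengths, each replicate left out, and, added after seeing the data, a scale from genes of 1000 to 16000 reads, PHF8 and KDM7A as H3K9 erasers, and lowess removal of the length trend (statsmodels 0.14.6, span 0.3). Copies were aligned with minimap2 2.31. Family shares and ratios were not tested, since 3 paired libraries allow no exact p below 0.25. Protein sequences and Y-linked relatives of KDM5C and KDM6A were not used here. A listed marker gene is not reported here.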

Additional observations from a re-analysis of the deposited data

How the results depend on the processing

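The number of the 49 genes called for spread was 7 with library totals, DESeq2 size factors, a minimum mean of 1 or 50 reads and unmerged rows. It was 26 with the plain chi-square, which takes reads as independent and called 6141 of all genes (41.9%) against 508, 2 with edgeR's trended dispersion (55 of all genes), 3 with the length trend removed (271) and 4 with the scale from genes of 1000 to 16000 reads (148), the last pair chosen after seeing the data. It ranged from 2 without replicate 2 to 9 without replicate 1, with 3 without replicate 3 (200, 444 and 183 of all genes). With union exon lengths, which include every annotated exon, rho with length was 0.49 in replicate 2 and -0.45 in replicate 3, and the ratio of writers to erasers was 1.47 for H3K4, the other direction, 1.24 for H3K9, 4.95 for H3K36 and 2.81 for DNA. Counting the KDM4 genes with H3K36 gave 4.21 for H3K9 and 1.89 for H3K36, and PHF8 and KDM7A as H3K9 erasers gave 1.17. Of 17 families, 14 kept their leader with union lengths (SMYD2, KDM1B and KDM4A then led theirs) and 16 with no length scaling and without replicate 1 or 2, SMYD2 being the exception each time. No paired analysis was possible because the libraries form a single group. Depth limits the genes with the fewest reads, TET1, SUV39H1 and SETDB2.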
